A study of Caenorhabditis elegans with 6 samples.

Results

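The pharyngeal muscle genes described here are 8 genes of Caenorhabditis elegans: the myosin heavy chain genes myo-1, myo-2 and myo-5, the troponin genes tnc-2, tni-4 and tnt-4, and the identity factor genes ceh-22 and pha-4. They were chosen by name, and every probe set annotated to 1 of these symbols alone was taken. This gave 11 of the 22548 probe sets tested, with 2 each for myo-1, ceh-22 and pha-4 and 1 for each of the other 5 genes. All 8 genes were measured and no filter on low values was applied. The arrays were hybridised with RNA of synchronized N2 larvae, labelled L2, that had been plated as L1 larvae on HT115 bacteria and kept for 21 hours at 20 C. In 3 samples the bacteria carried the L4440 plasmid with an insert from the ligand-binding domain of nhr-23, and in 3 controls the empty L4440 plasmid. Both groups therefore ate bacteria with the same vector backbone, and the labels name no allele or transgene in either. Feeding RNAi lowers a transcript to an extent that can differ between cultures and tissues, and no line with nhr-23 deleted was part of the comparison, which asked which transcripts differ when NHR-23, a nuclear receptor that larvae need to molt, is targeted.

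The pharynx is the muscular pump with which the worm feeds. Its muscle cells contract through sarcomeres of their own kind: thick filaments are built from pharyngeal myosin heavy chains, and contraction is switched by a calcium-sensing troponin complex of a calcium-binding subunit (C), an inhibitory subunit (I) and a tropomyosin-binding subunit (T), most of them encoded by other genes than those used in the body wall. PHA-4, a FoxA forkhead factor, specifies the cells of the pharynx as an organ, and CEH-22, a homeodomain factor of the NK-2 family, activates muscle genes such as myo-2 within it. At each molt the worm stops pumping and also replaces the cuticle that lines the pharynx.

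Values are log2 expression values per probe set as deposited, so that 1 unit is a doubling. Array medians lay between 5.12 and 5.18, and within a group the SD of the difference between 2 arrays lay between 0.186 and 0.394. The label check was mixed. The brighter nhr-23 probe set read 7.67, 7.47 and 7.52 on the arrays labelled nhr-23 RNAi, against 8.27, 8.12 and 7.74 on the control arrays. The dimmer one read 8.76, 9.61 and 8.76 on the arrays labelled nhr-23 RNAi, against 6.60, 6.56 and 5.80 on the control arrays, in the direction opposite to a knockdown. The stretch of nhr-23 matched by these probes, and so whether they can pick up the fed double-stranded RNA, was not examined here. The arrays are therefore called RNAi-labelled below, and directions are those of the labels. One array, RNAi-labelled replicate 2, stood apart from the other 5 for most of the member probe sets, and the differences of the members are therefore given with and without it. Because this array was picked on the low member values themselves, leaving it out raises the RNAi-labelled means by construction.

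No member passed the threshold of an adjusted p under 0.05 (limma, Benjamini-Hochberg over 22548 probe sets): 0 of 11 member probe sets were called, as were 0 of all probe sets (0%). At an unadjusted p under 0.05 the same fit gave 1 of 11, the dimmer probe set of ceh-22, against 3.69% of all probe sets in either direction and 1.55% lower. In the mean, 11 of 11 member probe sets were lower on the RNAi-labelled arrays, where 45% of all probe sets were lower. The median log2 difference of the 11 was -0.23, against 0.01 over all probe sets. Without RNAi-labelled replicate 2, 6 of 11 were lower, against 45.4% of all probe sets, and the median was -0.02. The groups did not overlap in 1 of 11, lower on the RNAi-labelled arrays, against 3.14% of all probe sets. The myosins and troponins differed from the identity factors in which arrays were low, so the members are described by role.

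**Figure D1:**
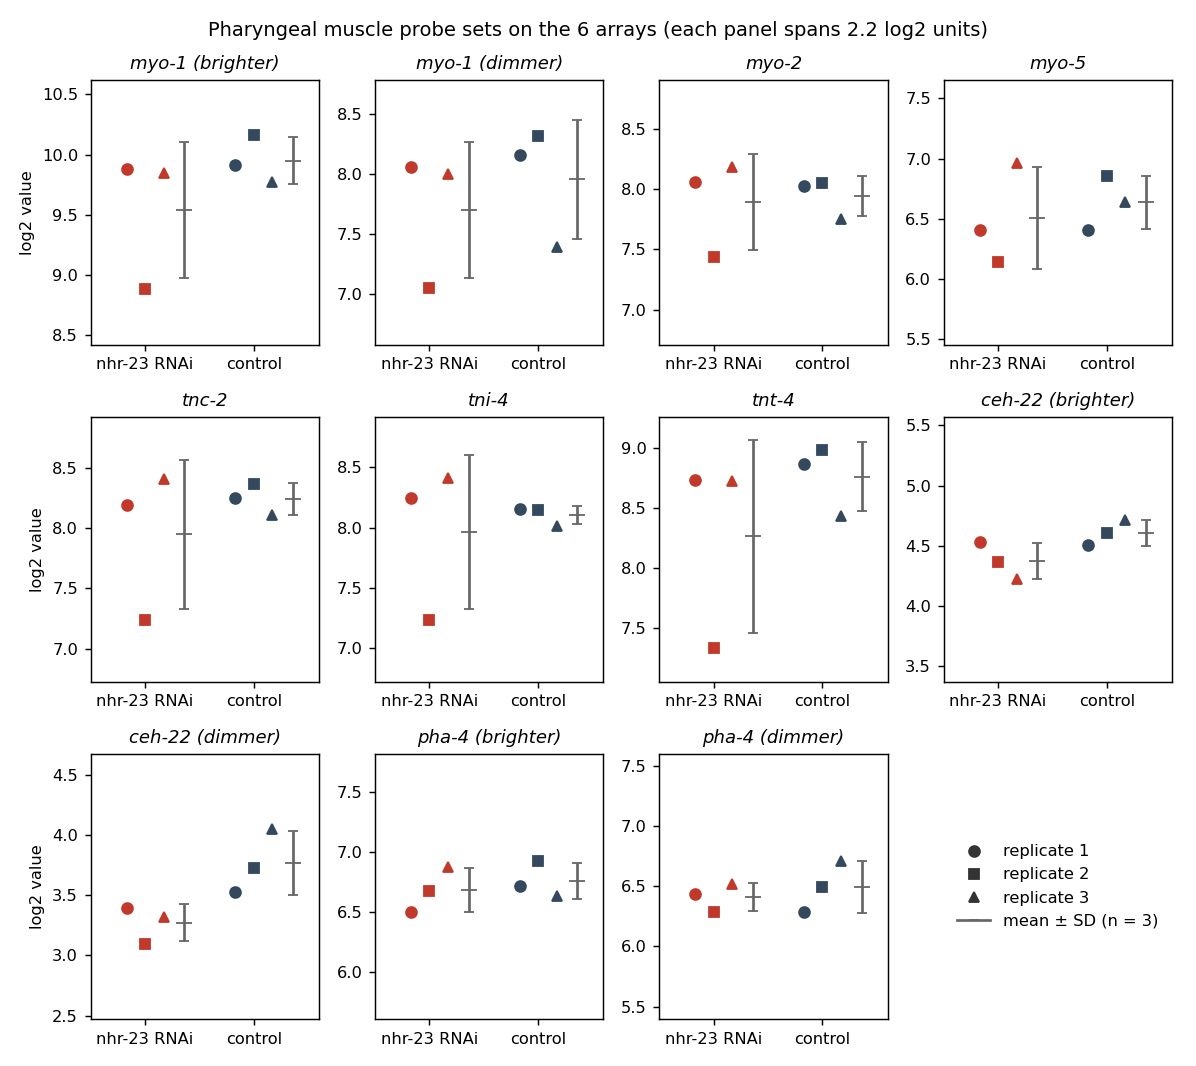
Each panel shows 1 member probe set, with log2 values on the vertical axis and the RNAi-labelled arrays left of the control arrays. Symbols mark the replicate number, bars the mean ± SD (n = 3), and every vertical axis spans the same length in log2 units. In all 7 myosin and troponin panels RNAi-labelled replicate 2 is the lowest of the 6 points, as in 1 of the 4 panels of ceh-22 and pha-4, while for the dimmer pha-4 probe set it ties with control replicate 1.

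The myosin heavy chains form the thick filaments that pull during each pump. The brighter of the 2 myo-1 probe sets read 9.88, 8.89 and 9.85 on RNAi-labelled replicates 1, 2 and 3, against 9.92, 10.16 and 9.77 on control replicates 1, 2 and 3. RNAi-labelled replicates 1 and 3 thus lay within the control range, and replicate 2 lay 0.98 log2 below their mean. The group difference was 1.33-fold lower (log2 difference -0.41, SE 0.27, limma adjusted p = 0.993), and without replicate 2 of the RNAi-labelled arrays it was -0.08 (SE 0.13). The dimmer myo-1 probe set read 8.06, 7.05 and 7.99, against 8.16, 8.31 and 7.39 on the controls. Here too RNAi-labelled replicate 2 was lowest, while control replicate 3 lay below the other controls, and the log2 difference of -0.25 (SE 0.34) became 0.07 (SE 0.28) without RNAi-labelled replicate 2.

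The second pharyngeal myosin, myo-2, whose promoter is widely used to mark pharyngeal muscle, read 8.06, 7.43 and 8.18 on the RNAi-labelled arrays, against 8.02, 8.05 and 7.75 on the controls. Its group means of 7.89 ± 0.40 and, for controls, 7.94 ± 0.17 (SD, n = 3 each) differed by -0.05 (SE 0.20, limma adjusted p = 0.995). That was the group difference nearest 0 among the 11 member probe sets. Without RNAi-labelled replicate 2 the sign turned, to 0.18 (SE 0.12). The third myosin gene, myo-5, read 6.41, 6.14 and 6.97 on the RNAi-labelled arrays, against 6.41, 6.86 and 6.64 on the controls. RNAi-labelled replicate 2 was lowest and RNAi-labelled replicate 3 highest of the 6, and the difference of -0.13 (SE 0.22) became 0.05 (SE 0.21) without RNAi-labelled replicate 2. All 4 myosin probe sets carry names ending in _s_at, which marks probes shared by more than 1 transcript, so a contribution from related myosin transcripts cannot be told apart from the gene's own.

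The troponin members showed the same array lowest. The calcium-binding subunit gene tnc-2 read 8.19, 7.24 and 8.41 on the RNAi-labelled arrays, against 8.25, 8.37 and 8.11 on the controls. The inhibitory subunit gene tni-4 read 8.25, 7.23 and 8.41, against 8.15, 8.15 and 8.02 on the controls. For tni-4 the controls lay close together (SD 0.08, n = 3) and RNAi-labelled replicates 1 and 3 lay above all of them, while replicate 2 lay 0.78 log2 below the lowest of the other 5 arrays.

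The tropomyosin-binding subunit gene tnt-4 had the widest spread of any member on the RNAi-labelled arrays. It read 8.73, 7.34 and 8.73 on the RNAi-labelled arrays, against 8.87, 8.98 and 8.43 on the controls. Its means were 8.26 ± 0.80 on the RNAi-labelled arrays and 8.76 ± 0.29 on the controls (SD, n = 3 each), 1.41-fold lower (log2 difference -0.50, SE 0.38, limma adjusted p = 0.993). Without RNAi-labelled replicate 2 the difference of tnt-4 was -0.03 (SE 0.17). That of tnc-2 was -0.29 (SE 0.29) with all arrays and 0.06 (SE 0.12) without this array, and that of tni-4 was -0.14 (SE 0.29) and 0.22 (SE 0.09). The probe sets of the 3 troponin genes do not carry the _s_at ending.

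**Figure D2:**
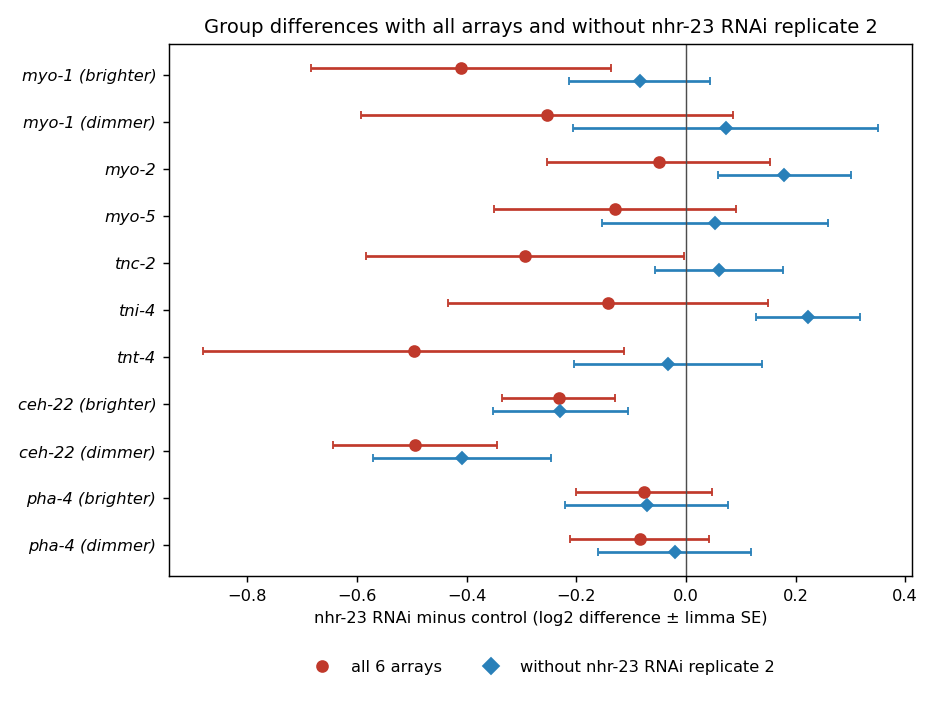
Log2 differences (RNAi-labelled minus control, horizontal axis) with limma's SE for the 11 member probe sets, from all 6 arrays (circles) and without RNAi-labelled replicate 2 (diamonds). Leaving out this array moves the 7 myosin and troponin values to between -0.08 and 0.22, while those of ceh-22 stay at -0.23 and -0.41.

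The labels state no pairing, and arrays of the same replicate number were taken as pairs on the values alone. Across all probe sets their deviations from the group means correlated at 0.580, 0.167 and 0.573 in pairs 1, 2 and 3. Pair 2 has weak support, since RNAi-labelled replicate 1 with control replicate 2 gave 0.233. In pair 2 all 7 myosin and troponin probe sets were lower on the RNAi-labelled array, by -1.64 log2 for tnt-4 to -0.62 log2 for myo-2, with a median of -1.13. In pair 1 their differences ran from -0.14 to 0.09 log2, and in pair 3 from 0.08 to 0.61 log2, so that 0 of 7 were lower in pair 3. Hence 0 of these 7 were lower in all 3 pairs, against 11.1% of all probe sets. Fitted with the replicate number as a block, 0 of 11 members passed, against 0.00887% of all probe sets (2 probe sets, among them the dimmer nhr-23 probe set). The smallest limma adjusted p of a member with the block was 0.561, for the dimmer ceh-22 probe set. In pair 2 the control array was also the highest of the 3 controls for 6 of the 7 probe sets, and in pair 3 the control array was the lowest for 6 of the 7. The pair differences thus hold the spread of the controls as well as that of the RNAi-labelled arrays.

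**Figure D3:**
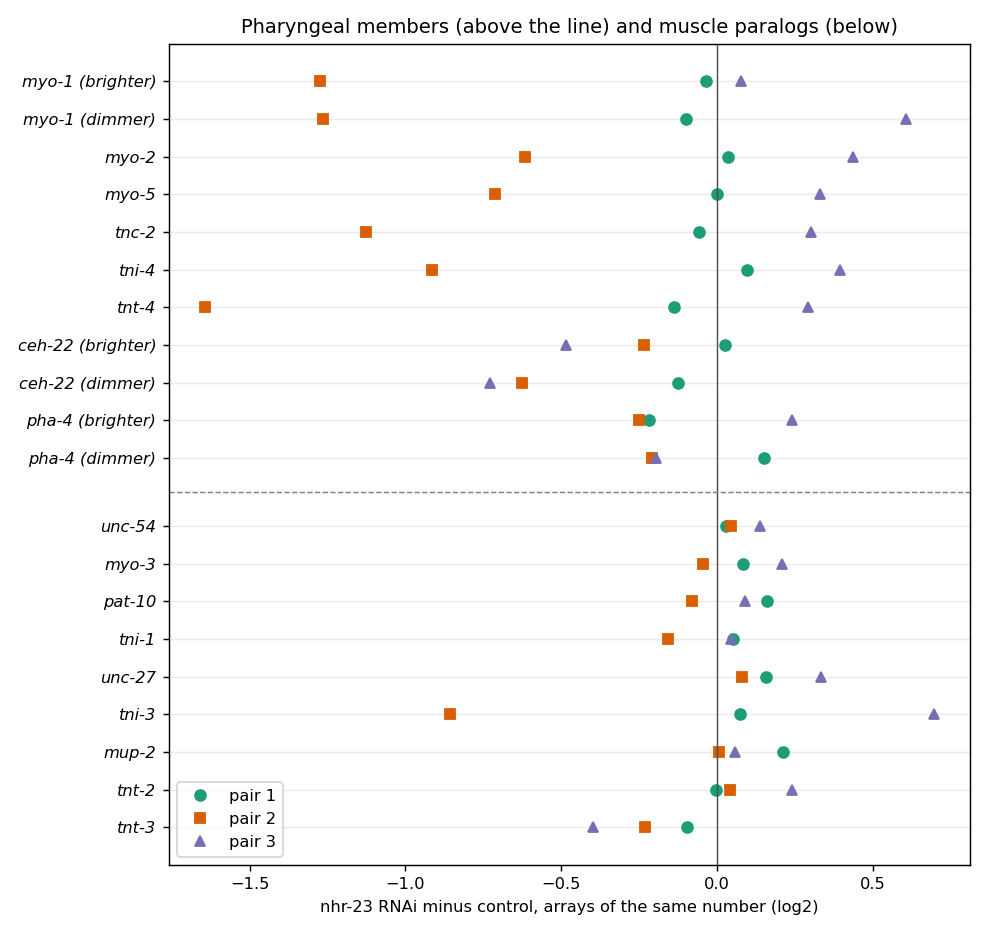
Differences between arrays of the same number (RNAi-labelled minus control, log2, horizontal axis) for the 11 member probe sets above the dashed line and for 1 probe set of each of 9 muscle paralogs below it. Pair 2 lies between -1.64 and -0.62 for the myosin and troponin members, and of the paralogs only tni-3, at -0.86, lies in that range.

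RNAi-labelled replicate 2 was the lowest of the 6 arrays in 8 of the 11 member probe sets and in 7 of 7 myosin and troponin probe sets, against 17.3% of all probe sets. It lay at least 0.2 log2 below every other array in 8 of 11 member probe sets, against 4.26% of all probe sets, and at least 0.5 log2 below in 4 of 11, against 0.75%. The array itself was singled out because most member probe sets were low on it, so these shares and the ranks below are a description and no test. The myosin and troponin probe sets share the same 6 libraries and are not separate observations of this array. The wider margin was chosen after the values were seen, because the dimmer ceh-22 probe set lay close to the narrower one. The 4 were the brighter myo-1 probe set, tnc-2, tni-4 and tnt-4. Ordered by the difference between this array and the mean of the other 5, tnt-4 was number 14 from the lowest among 22548 probe sets, the brighter myo-1 probe set number 65, tnc-2 number 68, tni-4 number 87 and the dimmer myo-1 probe set number 99. Further up stood myo-2 at number 410, myo-5 at number 563 and, next to it, the dimmer ceh-22 probe set at number 588. The other ceh-22 probe set and those of pha-4 stood between numbers 2880 and 7430. No other array was the lowest for more than 1 of the 11 member probe sets. The median of this array over all probe sets was 5.15, but all 6 array medians lay close together, so this says little about the array. It was the highest of the 6 in 20.8% of all probe sets, the largest such share of any array (9.73% to 18.2% for the others).

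**Figure D4:**
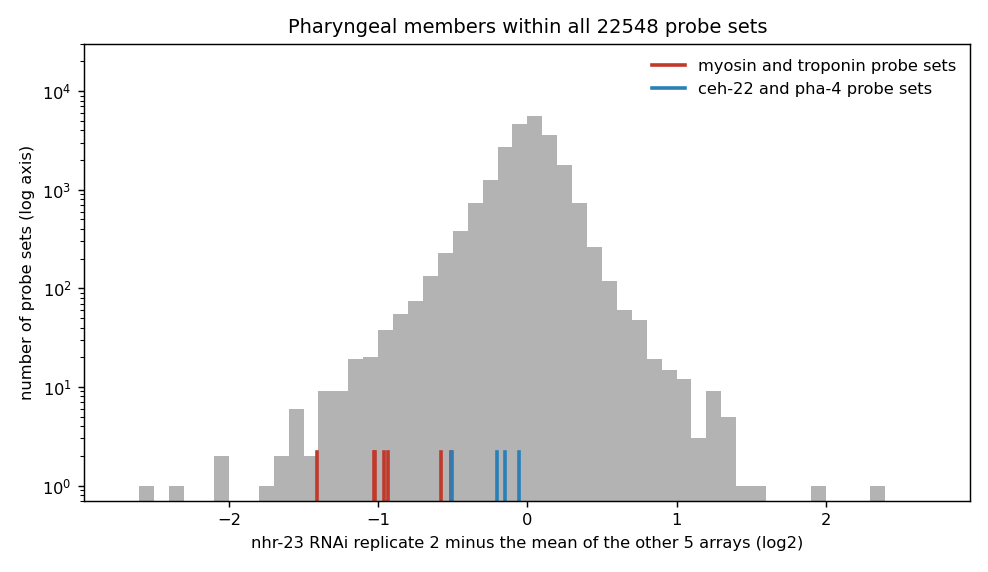
The grey bars count all 22548 probe sets by the difference between RNAi-labelled replicate 2 and the mean of the other 5 arrays (log2, horizontal axis), on a logarithmic vertical axis. The short coloured lines mark the member probe sets, with the myosins and troponins between -1.41 and -0.51 and ceh-22 and pha-4 between -0.50 and -0.06.

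The identity factors lay nearer to the other RNAi-labelled arrays on replicate 2, by -0.26 to -0.01 log2 from their mean, against -1.39 to -0.55 log2 for the filament genes. For ceh-22 the dimmer probe set read 3.40, 3.10 and 3.32 on the RNAi-labelled arrays, against 3.52, 3.73 and 4.05 on the controls. All 3 RNAi-labelled values lay below all 3 control values, and the difference was 1.41-fold lower (log2 difference -0.49, SE 0.15). Its unadjusted p was 0.0139 and its adjusted p 0.993 by limma. In the 3 pairs it differed by -0.13, -0.63 and -0.73 log2. Thus 1 of 11 member probe sets was lower in all 3 pairs, against 11.1% of all probe sets. Without RNAi-labelled replicate 2 the difference was -0.41 (SE 0.16). The brighter ceh-22 probe set read 4.53, 4.37 and 4.23 on the RNAi-labelled arrays, against 4.50, 4.60 and 4.71 on the controls. RNAi-labelled replicate 1 reached into the control range, so the groups overlapped, and the difference was -0.23 (SE 0.10, limma unadjusted p = 0.0604), also -0.23 without RNAi-labelled replicate 2. Both ceh-22 probe sets read below the array medians, and no detection calls were used, so signal over background is unknown.

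For pha-4 the groups overlapped in both probe sets. The brighter one read 6.50, 6.67 and 6.87 on the RNAi-labelled arrays, against 6.72, 6.93 and 6.63 on the controls. The dimmer one read 6.43, 6.28 and 6.52 on the RNAi-labelled arrays, against 6.28, 6.49 and 6.71 on the controls. Their differences were -0.08 (SE 0.12) and -0.08 (SE 0.13), smaller than the SD of the controls in each. They were -0.07 (SE 0.15) and -0.02 (SE 0.14) without RNAi-labelled replicate 2, and this array lay only 0.01 and 0.19 log2 below the mean of the other RNAi-labelled arrays. PHA-4 acts in all pharyngeal cell types and in some cells outside the pharynx, so its transcript is no measure of the muscle cells alone.

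The likeness among members was described by Pearson's r over the 6 arrays, with no p because all genes share the same 6 libraries. Among the 7 myosin and troponin probe sets the 21 values of r ran from 0.548 to 0.988 with a median of 0.904. Without RNAi-labelled replicate 2 the median over 5 arrays was 0.677. Between these 7 and the 4 identity factor probe sets the median r was 0.328 over 6 arrays and -0.331 over 5. The 2 probe sets of myo-1 had an r of 0.884 and those of ceh-22 an r of 0.841, while those of pha-4 had an r of 0.056.

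Most genes for the corresponding proteins of body wall and other muscle did not show the low array in their brighter probe sets. The 9 paralogs were brighter on average than the myosin and troponin members, at 10.17 and 8.25 log2 on control replicate 1. The comparison is thus not one at like levels. With probe sets ending in _s_at or _x_at left out, 1 of the 9 remained, unc-27. In the others a contribution from related transcripts cannot be told apart. The major body wall myosin gene unc-54 read 11.66, 11.63 and 11.51 on the RNAi-labelled arrays, against 11.64, 11.58 and 11.37 on the controls, and the second body wall myosin gene myo-3 read 9.46, 9.34 and 9.53, against 9.38, 9.39 and 9.32 on the controls. The body wall troponin C gene pat-10 read 12.99, 12.76 and 12.79 in its brighter probe set, against 12.83, 12.84 and 12.70 on the controls. In its dimmer probe set, however, RNAi-labelled replicate 2 was the lowest of the 6 arrays, with 11.81, 11.41 and 11.79 against 11.59, 11.57 and 11.43 on the controls. Of 9 such paralogs, 3 were lower and 6 higher in the mean on the RNAi-labelled arrays, with a median log2 difference of 0.07 (0.10 without RNAi-labelled replicate 2) and 0 called. In the brighter probe set of each gene, RNAi-labelled replicate 2 was lowest of the 6 arrays in 2 of the 9, the troponin I genes tni-1 and tni-3. A further troponin I gene, unc-27, was higher on all 3 RNAi-labelled arrays than on any control (log2 difference 0.19, SE 0.10, limma adjusted p = 0.993). The troponin T genes mup-2 and tnt-2 each differed by 0.09 (SE 0.08 and 0.09). In all 3 pairs 1 of the 9 paralogs was lower, against 11.1% of all probe sets. This was the troponin T gene tnt-3, at -0.10, -0.23 and -0.40 log2. Its log2 difference was -0.24 (SE 0.19, limma adjusted p = 0.993, or 0.814 with the replicate block).

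The exception in size was tni-3, a troponin I gene of muscle outside the pharynx. Its brighter probe set read 8.44, 7.40 and 8.50 on the RNAi-labelled arrays, against 8.37, 8.26 and 7.81 on the controls, so that RNAi-labelled replicate 2 lay 1.07 log2 below the mean of the other RNAi-labelled arrays. Its log2 difference was -0.03 (SE 0.31), and 0.33 (SE 0.18) without this array. Its dimmer probe set read 7.25, 6.70 and 7.35, against 7.19, 7.15 and 6.82 on the controls. Among the filament proteins that both muscle types use, lev-11, the tropomyosin gene, had 7 probe sets. The one chosen here after its values were seen read 7.40, 6.21 and 7.33 on the RNAi-labelled arrays, against 7.29, 7.54 and 6.95 on the controls, while the brightest read 11.28, 11.25 and 11.28, against 11.27, 11.24 and 11.27 on the controls. The lev-11 gene makes several tropomyosin isoforms, some of them pharyngeal, and the isoforms matched by its probe sets were not identified. Of the 11 shared filament genes measured, 7 were lower and 4 higher, the median being -0.03 log2, or 0.01 without RNAi-labelled replicate 2, and 0 were called.

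Other genes of the pharynx were taken from lists by role, with the brightest probe set standing for each gene, and 0 members of any list passed. Of 11 measured genes of pharyngeal muscle excitability (mostly channels, receptors and junction proteins), 8 were lower and 3 higher. Whether their transcripts are limited to pharyngeal muscle was not examined. Their median was -0.12 log2, or -0.03 without RNAi-labelled replicate 2. This array was the lowest of the 6 in 7 of the 11, against 17.3% of all probe sets. Without it, 7 of 11 were still lower, against 45.4% of all probe sets. In all 3 pairs 5 of the 11 were lower, against 11.1% of all probe sets. The groups did not overlap in 4 of the 11, all lower on the RNAi-labelled arrays, against 3.14% of all probe sets. The smallest unadjusted p in that list was that of cca-1, a T-type calcium channel gene, which read 5.21, 5.05 and 5.23 on the RNAi-labelled arrays, against 5.29, 5.54 and 5.39 on the controls (log2 difference -0.25, SE 0.10, limma adjusted p = 0.993). The difference of cca-1 was -0.19 (SE 0.10) without RNAi-labelled replicate 2. Of 10 other pharyngeal transcription factor genes, 4 were lower and 6 higher. Their median was 0.04 log2 with and without RNAi-labelled replicate 2, and RNAi-labelled replicate 2 was lowest in 2 of them. The smallest unadjusted p there was that of ceh-28, a homeodomain factor of a pharyngeal neuron. Its difference was 0.23 log2 (SE 0.08, limma adjusted p = 0.993), or 0.17 (SE 0.08) without that array. Its mean over the 6 arrays was 3.98, below the array medians. With dim probe sets left out, 3 of the 10 factor genes remained, with a median of -0.03 log2. For the dim ones, ceh-28 among them, signal over background is unknown.

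Genes for secreted products of the pharynx were mixed on RNAi-labelled replicate 2. Relative to the mean of the other RNAi-labelled arrays it ran from -0.60 log2 for dod-6 to 0.41 log2 for phat-2 among the gland genes, and from -0.70 log2 for abu-15 to 1.48 log2 for abu-13 among the pharyngeal cuticle genes, these 4 being named as the ends of the ranges. All 7 gland genes measured were lower in the mean, with a median of -0.45 log2, and still all 7, with a median of -0.42 log2, without RNAi-labelled replicate 2, which was lowest in 3 of the 7. In all 3 pairs 6 of the 7 were lower, against 11.1% of all probe sets. The median difference of the gland genes was -0.24 log2 without control replicate 3 and -0.52 log2 without control replicate 1. Their median deviation from the control mean was -0.40, -0.48 and -0.25 log2 on the RNAi-labelled arrays, against -0.18, -0.07 and 0.18 log2 on the controls. The gland gene phat-4 read 7.83, 7.94 and 7.56 on the RNAi-labelled arrays, against 7.97, 8.37 and 8.35 on the controls, and RNAi-labelled replicate 2 was thus the highest of its group. All 12 pharyngeal cuticle genes measured were lower in the mean, with a median of -0.49 log2 (-0.38 without RNAi-labelled replicate 2), but RNAi-labelled replicate 2 was the lowest array in 0 of the 12. Set against each gene's control mean, their median deviation was -0.79, -0.43 and 0.07 log2 on the RNAi-labelled arrays, against -0.87, 0.15 and 0.72 log2 on the controls. In both groups replicate 1 was lowest and replicate 3 highest. The gene of that list with the smallest p, abu-10, differed by -0.94 log2 with an SE of 0.61, or 0.14 with the replicate block (limma adjusted p = 0.146 with the block). The median difference of the list was -0.04 log2 without control replicate 3 and -0.80 log2 without control replicate 1. With probe sets ending in _s_at or _x_at left out, 5 of the 12 cuticle genes remained, with a median of -0.32 log2. In the others a contribution from related transcripts cannot be told apart, so the 12 are not separate readings.

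Markers of other tissues also stood low or high on RNAi-labelled replicate 2. It was the lowest array for 7 of 10 neuronal genes, whose mean log2 level was 8.31, 8.13 and 8.41 on the RNAi-labelled arrays, against 8.36, 8.41 and 8.55 on the controls. It was the highest array for 5 of 6 germline genes (median deviation from the control mean -0.14, 0.29 and 0.02 log2 on the RNAi-labelled arrays, against 0.06, -0.03 and -0.001 on the controls) and for 5 of 8 intestinal genes (0.07, 0.12 and 0.06, against 0.01, 0.001 and 0.02 on the controls). For 10 genes of body wall muscle identity and attachment it was lowest in 5, and their mean log2 level was 8.16, 8.05 and 8.07 on the RNAi-labelled arrays, against 8.02, 8.05 and 8.10 on the controls. For 8 epidermal genes it was lowest in 0 and highest in 3. The lowest value in the whole table was 2.24, and no detection calls were used. The values therefore do not show that every marker was expressed. The part of these shifts in the member values was not tested. In RNA of whole larvae, fewer cells of a type and less RNA per cell cannot be told apart.

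**Figure D5:**
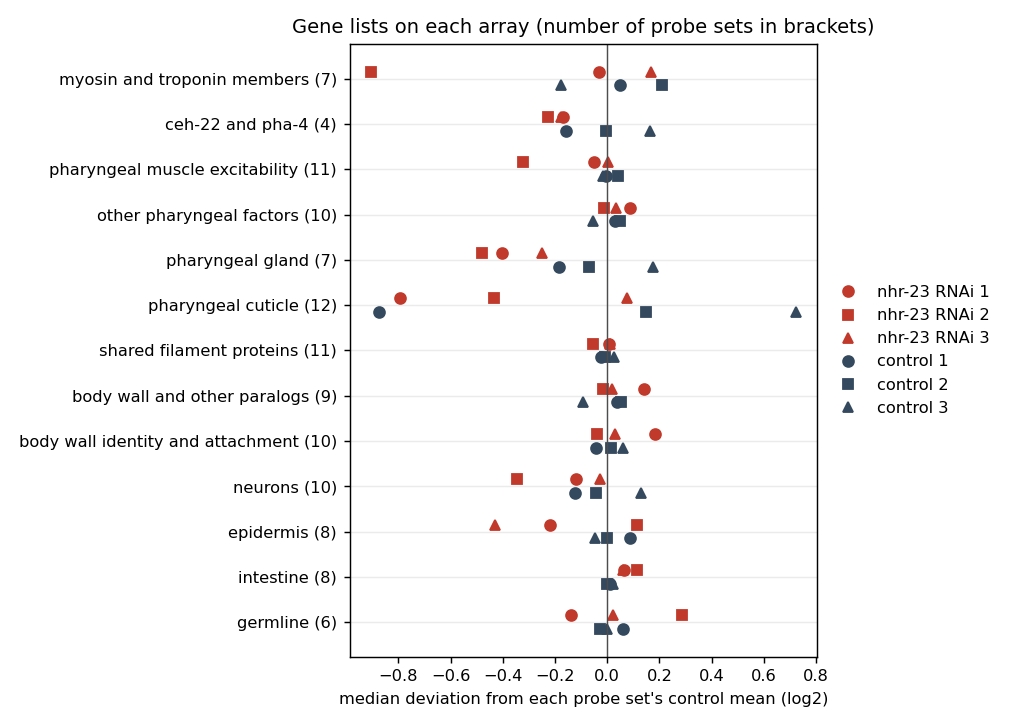
For each gene list, the median over its probe sets of the deviation from the control mean (log2, horizontal axis) is drawn for each array, with the RNAi-labelled arrays (red) above the control arrays (dark) and the replicate number as symbol. RNAi-labelled replicate 2 lies at -0.91 for the myosin and troponin members, at -0.48 for the pharyngeal gland and at -0.43 for the pharyngeal cuticle. It lies at -0.35 for neurons, at -0.32 for pharyngeal muscle excitability and at 0.29 for germline genes.

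The genes with a pattern most like that of the members over the 6 arrays were taken by Pearson's r to the mean profile of the 8 member genes, among 3124 probe sets of sufficient level and spread. The 5 highest were flp-17, which encodes FMRFamide-like peptides (r = 0.995), the neuropeptide receptor gene frpr-18 (0.991), C24A3.2 (0.990), T21B6.3 (0.988) and C10B5.3 (0.986). The first of these, flp-17, read 7.24, 6.43 and 7.32 on the RNAi-labelled arrays, against 7.22, 7.46 and 7.16 on the controls. Like the members it was lowest on RNAi-labelled replicate 2. An r of at least 0.9 was reached by 111 of the 3124. Without RNAi-labelled replicate 2 the r of flp-17 was 0.943 over 5 arrays.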

How the data were processed

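The authors deposited 1 table of log2 values per Affymetrix probe set for 6 samples, which was used as deposited. Per the submitters' processing notes, MAS5, RMA and Partek were used, with no version. The sources used here do not say which of them made the table. Of its 22625 probe sets, 77 array controls were left out. Gene symbols came from the platform annotation, updated through Entrez identifiers to the WBcel235 gene table (20701 of 20766 single-gene probe sets matched). No sequence or coordinate is given, because no table of them for this array was used.

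Groups were set against each other by lmFit and eBayes of limma 3.58.1 under R 4.3.3, 2-sided with no covariate, over 22548 probe sets, with Benjamini-Hochberg adjustment and a threshold of 0.05. The fit was tested on simulated data. Same-numbered arrays deviated together, with correlations of 0.580, 0.167 and 0.573 of their deviations from the group means, so the numbers were taken to pair the arrays on the values alone. The support for pair 2 is weak: RNAi replicate 1 with control replicate 2 gave 0.233 and RNAi replicate 2 with control replicate 1 gave 0.123. The alternatives were the replicate block, quantile normalization, equal array medians, left-out dim or shared probe sets, another variance model, probe sets averaged by gene and left-out arrays. The samples are called biological replicates in the titles, with no more said. The p-values set each group difference against the spread between these samples, moderated by limma over all probe sets.

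The members and lists were chosen with earlier results of these data known. All member probe sets are named, with the 9 paralogs of the myosins and troponins, nhr-23, the member of another list with the smallest p where described, and the 5 genes most like the members with a mean above the median and an SD of at least 0.2.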

Additional observations from a re-analysis of the deposited data

How the results depend on the processing

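In the fit without the replicate block, and under 16 alternatives, 0 member probe sets and 0 genes of the other lists passed the threshold. The replicate block was used because the numbers were taken to pair the arrays, with weak support for pair 2. It called 2 of all probe sets, where the fit without it called 0, and changed no other call. The dimmer nhr-23 probe set was among the 2 (limma adjusted p = 0.0370 with the block). With probe sets ending in _s_at or _x_at left out, 5 of 5 member probe sets were lower. Leaving out arrays, the number of member probe sets lower in the mean ran from 3 (without replicate 2 of both groups) to 11, and was 6 without nhr-23 RNAi replicate 2, and their median difference ran from -0.38 to 0.076 log2. The log2 difference ran from -0.66 to 0.021 and from -0.68 to 0.25 for the brighter and the dimmer myo-1 probe set, from -0.29 to 0.23 for myo-2, from -0.36 to 0.16 for myo-5, from -0.59 to 0.12 for tnc-2, from -0.41 to 0.24 for tni-4 and from -0.89 to 0.076 for tnt-4. It ran from -0.23 to 0.015 and from -0.20 to 0.024 for the brighter and the dimmer pha-4 probe set. The brighter myo-1 probe set and tnt-4 turned positive only when both replicate 2 arrays were left out together. The dimmer pha-4 probe set turned positive only without control replicate 3. The other myosin, troponin and pha-4 probe sets turned positive both without the 2 replicate 2 arrays and when 1 array was left out. The cause was not tested. Both ceh-22 probe sets kept their negative sign, from -0.36 to -0.11 and from -0.68 to -0.35, but both fall out when dim probe sets are left out. Signal over background is not known, and 3 arrays a group limit the precision.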
